A study of Mus musculus with 18 samples.

Results

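The AP-1 transcription factors examined here are the products of 8 mouse genes: Jun, Junb and Jund of the Jun family, Fos, Fosb, Fosl1 and Fosl2 of the Fos family, and Atf3, a stress-induced partner of the Jun proteins. Members were taken as every array probe set annotated to 1 of these gene symbols alone, which gave 10 probe sets of the 20380 annotated to a single gene, and 8 of the 12393 genes those represent. Fosl1 and Jun had 2 probe sets each. RNA came from 18 samples of aorta from male wild-type C57Bl/6 mice, each sample a pool of 3 aortas, hybridised to 1-colour Affymetrix arrays. Before the aortas were taken, all mice, vehicle groups included, carried subcutaneous pellets releasing spironolactone, a blocker of the mineralocorticoid receptor, at 20 mg/kg/day for 5 days. The aortas were then kept in organ culture in DMEM. Aldosterone, the steroid hormone that activates that receptor, was added to 100 nM in 3 groups, harvested after 2, 4 and 8 h, and vehicle was added in the other 3, harvested at the same times, with 3 pools in each of the 6 groups. Aortas taken before culture, or without spironolactone, were not analysed here, so every value belongs to cultured tissue from treated mice.

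AP-1 is a dimer of basic leucine zipper proteins that binds the palindromic site TGANTCA (any base at N). Jun proteins pair with each other or with Fos proteins, while Fos proteins need a Jun partner to bind. Fos, Fosb, Jun, Junb and Atf3 are immediate early genes, switched on within minutes by serum, injury or stress through factors that already sit at their promoters, and their messenger RNAs are short-lived. Fosl1 and Fosl2 encode Fra-1 and Fra-2, which are usually induced later. Jund is expressed in most resting tissues. In the vessel wall these genes are known to respond to stretch, injury and the handling of tissue, in smooth muscle cells among others.

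The gene starts of Fos, Jun and Atf3 are shown because the messenger RNAs of these members fell together in culture and because their promoters hold short motifs for related leucine zipper factors. The sequences are the 120 bases before each start in RefSeq (build GRCm38.p6), read 5′ to 3′ on the strand of the gene, with the motif in capitals.
Fos, chr12:85473770-85473889, plus strand: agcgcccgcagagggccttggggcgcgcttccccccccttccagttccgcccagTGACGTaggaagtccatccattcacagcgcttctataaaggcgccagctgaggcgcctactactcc
Jun, chr4:95052223-95052342, minus strand: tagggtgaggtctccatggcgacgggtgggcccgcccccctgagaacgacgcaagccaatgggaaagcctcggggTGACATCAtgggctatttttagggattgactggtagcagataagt
Atf3, chr1:191183334-191183453, minus strand: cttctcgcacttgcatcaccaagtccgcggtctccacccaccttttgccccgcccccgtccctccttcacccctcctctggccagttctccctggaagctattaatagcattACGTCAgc
Fos held TGACGT, the core of the cyclic AMP response element, at positions -66 to -61 counted from the start. Jun held TGACATCA, an AP-1-like element bound by Jun and ATF2, at -45 to -38. Atf3 held TGACGT on the opposite strand, printed as ACGTCA, at -8 to -3. Both strands of the 250 bases before the start were searched for these motifs, for the AP-1 site TGANTCA and for the CArG box bound by serum response factor. Of 32851 RefSeq windows of the same length, 6.47% held TGACGT, the AP-1 site was in 6.75%, the Jun element in 2.93% and a CArG box in 1.47%. The motifs were chosen after the sequences had been seen. RefSeq entries were found for 7 of the 8 members, and those of Fosb, Fosl2, Junb and Jund held none of the 4 motifs in this window. A match describes letters in a window and was not measured as a binding site.

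All 10 member probe sets passed the filter on dim signal, a log2 value above 4 in at least 3 of the 18 samples, and 7092 genes were tested. Correlations between samples ran between 0.838 and 0.994. The smooth muscle markers, 6 of 6 measured, averaged 12.30 to 12.35 in the aldosterone samples at 2 h and 12.03 to 12.19 in the vehicle samples at 2 h, and the 4 skeletal muscle markers were all below the filter. Vehicle 2 h replicate 1 stood apart: 908 genes differed by more than 1 on the log2 scale from the mean of the other vehicle 2 h samples, against 17 to 239 genes for each other sample, and the member values given below that moved by more than 1.5 times without it are given both ways, along with the main counts. Changes below are log2 differences ± SE of 3 samples against 3, with adjusted p-values from limma over the 7092 genes and a threshold of 0.05. For Fosl1 and Jun the brighter probe set stands for the gene. In these bulk samples fewer cells of a type and less RNA per cell cannot be told apart. Levels of different probe sets are not comparable, so each gene is compared with itself.

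**Figure D1:**
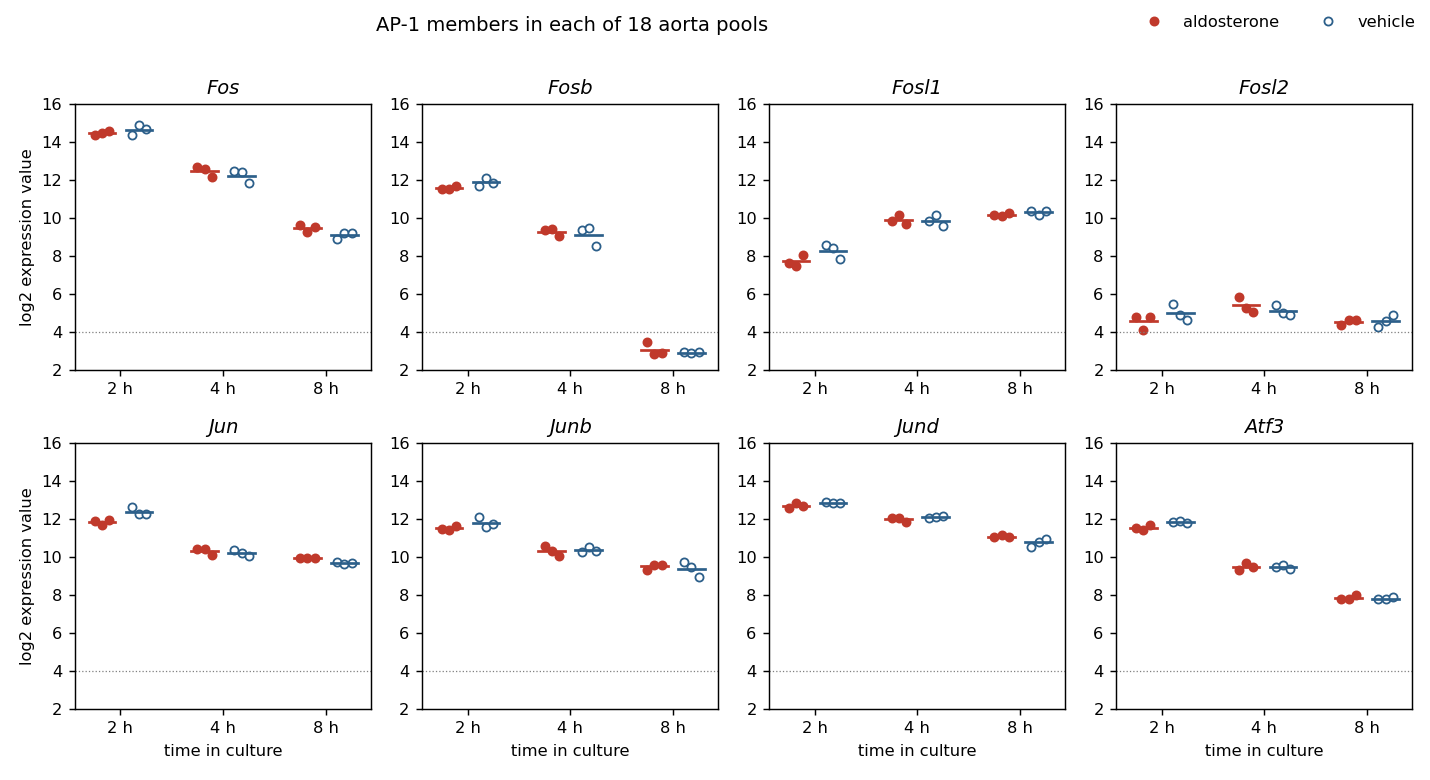
Log2 expression of the 8 members in each of the 18 aorta pools, against time in culture in h. Filled red points are aldosterone pools and open blue points vehicle pools, short bars are means of 3 pools, and the dotted line marks the filter level of 4; 6 members fall with time in both cultures, Fosl1 climbs and Fosl2 stays between 4.11 and 5.84.

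Jun encodes c-Jun, the founding partner of the dimer. At 2 h its log2 values were 11.91, 11.68 and 11.96 with aldosterone, against 12.65, 12.25 and 12.25 with vehicle. At 4 h they were 10.42, 10.44 and 10.13 with aldosterone, against 10.37, 10.23 and 10.06 with vehicle. By 8 h they were 9.93, 9.94 and 9.98 with aldosterone, against 9.73, 9.64 and 9.70 with vehicle. All aldosterone samples were therefore lower than all vehicle samples at 2 h, the groups overlapped at 4 h, and all aldosterone samples were higher at 8 h. The second probe set of Jun was dimmer, and at 2 h its values of 9.47, 9.94 and 9.74 with aldosterone overlapped 10.07, 9.91 and 10.05 with vehicle. At 4 h it did not overlap, with 8.48 to 8.59 with aldosterone and 8.29 to 8.47 with vehicle.

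Junb encodes a Jun protein that often opposes c-Jun in cell growth. Its values at 2 h were 11.47, 11.41 and 11.66 with aldosterone, against 12.11, 11.59 and 11.76 with vehicle. At 4 h Junb had 10.60, 10.34 and 10.06 with aldosterone, against 10.29, 10.56 and 10.31 with vehicle. At 8 h Junb had 9.32, 9.60 and 9.60 with aldosterone, against 9.72, 9.46 and 8.95 with vehicle. Aldosterone and vehicle samples overlapped at each of these 3 times. Jund encodes JunD, the member most often linked to quiescent cells. At 2 h the values of Jund were 12.61, 12.85 and 12.68 with aldosterone, against 12.92, 12.88 and 12.84 with vehicle, an overlap of 1 aldosterone sample. At 4 h they were 12.04, 12.04 and 11.88 with aldosterone, against 12.07, 12.14 and 12.16 with vehicle. At 8 h they were 11.04, 11.17 and 11.05 with aldosterone, against 10.55, 10.82 and 10.96 with vehicle. For Jund the aldosterone samples lay below the vehicle samples at 4 h and above them at 8 h.

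Fos encodes c-Fos, the classic marker of recent stimulation. At 2 h Fos stood at 14.37, 14.49 and 14.60 with aldosterone, against 14.40, 14.90 and 14.72 with vehicle. At 4 h Fos stood at 12.69, 12.61 and 12.15 with aldosterone, against 12.48, 12.41 and 11.86 with vehicle. At 8 h Fos stood at 9.65, 9.27 and 9.53 with aldosterone, against 8.91, 9.23 and 9.20 with vehicle. The treatments overlapped at 2 and 4 h, and at 8 h all aldosterone samples were higher, the closest pair being 9.27 with aldosterone and 9.23 with vehicle. The 2 h values lie near the top of the range of the table, and the deposited values carry no mark of saturation, so whether the probe set was saturated at 2 h was not tested.

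Fosb encodes FosB, a Fos protein whose spliced form ΔFosB accumulates under repeated stimulation. Its values at 2 h were 11.53, 11.53 and 11.67 with aldosterone, against 11.71, 12.12 and 11.87 with vehicle, without overlap. At 4 h Fosb had 9.39, 9.45 and 9.04 with aldosterone, against 9.37, 9.49 and 8.54 with vehicle. At 8 h Fosb had 3.45, 2.84 and 2.88 with aldosterone, against 2.92, 2.87 and 2.92 with vehicle. All 6 samples at 8 h were under 4, so these last values are only a bound on the level.

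Fosl1, which encodes Fra-1, ran the other way with time. At 2 h Fosl1 had 7.65, 7.48 and 8.07 with aldosterone, against 8.60, 8.45 and 7.82 with vehicle. At 4 h Fosl1 had 9.84, 10.17 and 9.68 with aldosterone, against 9.87, 10.19 and 9.56 with vehicle. At 8 h Fosl1 had 10.15, 10.10 and 10.29 with aldosterone, against 10.37, 10.16 and 10.38 with vehicle. The treatments overlapped at each time for this probe set. Its dimmer second probe set did not overlap at 2 h, with 4.20, 3.70 and 4.12 with aldosterone, against 4.89, 4.86 and 4.58 with vehicle. Those values lie near the filter level of 4, so folds from them are imprecise.

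Fosl2, which encodes Fra-2, stayed close to the filter level. Its values at 2 h were 4.78, 4.11 and 4.79 with aldosterone, against 5.48, 4.91 and 4.65 with vehicle. At 4 h they were 5.84, 5.29 and 5.07 with aldosterone, against 5.42, 4.98 and 4.90 with vehicle. At 8 h they were 4.36, 4.65 and 4.61 with aldosterone, against 4.28, 4.59 and 4.87 with vehicle. Treatments overlapped at all 3 times, and values this close to 4 give imprecise folds.

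Atf3 encodes a repressor and activator of stress genes that joins Jun proteins in the dimer. At 2 h Atf3 stood at 11.52, 11.44 and 11.70 with aldosterone, against 11.85, 11.89 and 11.78 with vehicle. At 4 h Atf3 stood at 9.33, 9.70 and 9.47 with aldosterone, against 9.46, 9.56 and 9.38 with vehicle. At 8 h Atf3 stood at 7.77, 7.77 and 8.00 with aldosterone, against 7.77, 7.77 and 7.90 with vehicle. The aldosterone samples were all lower at 2 h and overlapped the vehicle samples later.

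The study's comparison asks which genes aldosterone changed at each time. At 2 h, 0 of the 8 members passed the adjusted threshold by limma, where 0.0705% of all genes did, and 3 had an unadjusted p under 0.05. Those were Jun, at -0.54 ± 0.12 (adjusted p = 0.148), Fosl1, at -0.56 ± 0.20 (adjusted p = 0.332), and Atf3, at -0.29 ± 0.11 (adjusted p = 0.362). All 8 differences were below 0 at 2 h, ranging from -0.56 for Fosl1 to -0.17 for Jund, with a median of -0.31 against -0.07 over all genes. Fosb, Jun and Atf3 were lower in every aldosterone sample than in any vehicle sample, a pattern that 10.5% of all genes showed. Without vehicle 2 h replicate 1, 0 members passed, the median was -0.30 against 0.04 over all genes, and Jun gave -0.40 (adjusted p = 0.115). The values that moved most without it were those of Fos, at -0.32, Fosl2, at -0.22, and Junb, at -0.16, against -0.18, -0.45 and -0.30 with all samples. Centring each array on its median moved the median of all genes to 0.07 and that of the members to -0.17, and all 8 stayed below 0. The second probe sets gave -0.29 ± 0.12 for Jun (adjusted p = 0.373) and -0.77 ± 0.26 for Fosl1 (adjusted p = 0.304).

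At 4 h, 0 of the 8 members passed, against 0.24% of all genes, and 0 had an unadjusted p under 0.05 by limma. Their differences lay between -0.14 ± 0.10 for Jund and 0.30 ± 0.26 for Fosl2, with a median of 0.07 against 0.01 over all genes. Among the probe sets that stand for the genes, Jund alone did not overlap, lower with aldosterone, where 4.77% of genes did so in that direction. The second probe set of Jun did not overlap either, with a lowest aldosterone value of 8.48 and a highest vehicle value of 8.47. Its difference was 0.11 ± 0.12 (unadjusted p = 0.368 by limma). The share of all genes without overlap in the higher direction at 4 h is not given here.

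At 8 h, 0 of the 8 members passed, against 1% of all genes, and 1 had an unadjusted p under 0.05 by limma. That was Jund, which was 0.31 ± 0.10 higher with aldosterone (adjusted p = 0.361). Fos gave 0.37 ± 0.18 (adjusted p = 0.811) and Jun 0.26 ± 0.12 (adjusted p = 0.806). These 3 genes did not overlap between treatments, all higher with aldosterone, as did 9.11% of all genes in that direction. For Jun this rests on 1 probe set, since the second covered 8.21 to 8.31 with aldosterone and 8.19 to 8.31 with vehicle. When limma weighted arrays by their fit, Jund passed at 8 h (0.32, adjusted p = 0.0355), and under these weights 222 genes passed in all. Averaged over the 3 times, 0 members passed, against 1.1% of all genes, and 0 had an unadjusted p under 0.05 by limma, with differences between -0.22 ± 0.12 for Fosl1 and 0.14 ± 0.10 for Fos. Without vehicle 2 h replicate 1, 0 members passed for the average and their differences lay between -0.17 for Fosl1 and 0.09 for Fos.

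**Figure D2:**
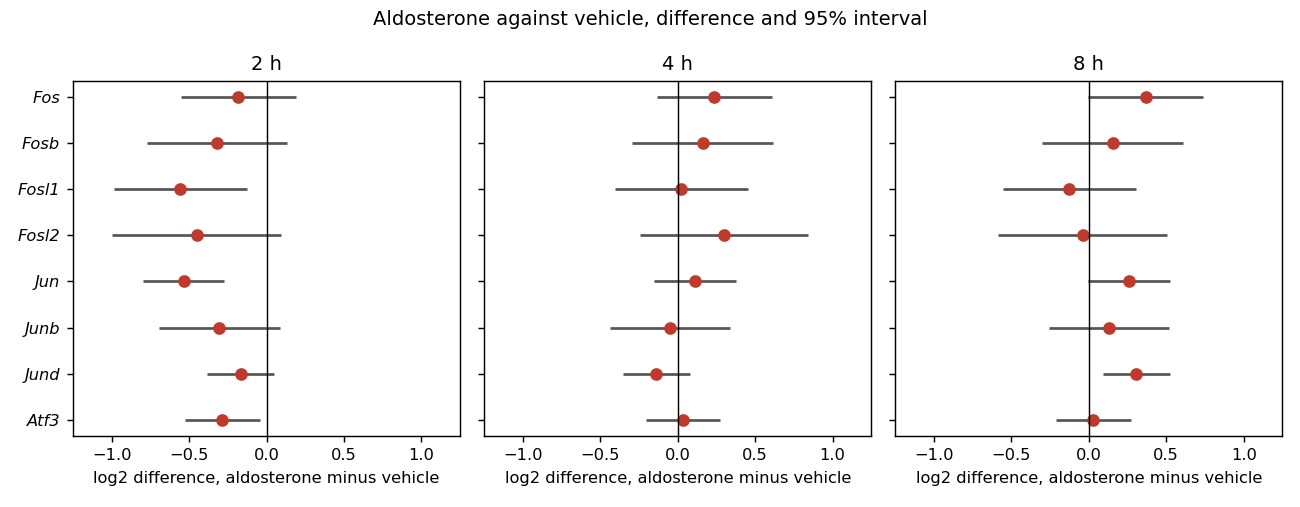
Log2 difference, aldosterone minus vehicle, for the 8 members at 2, 4 and 8 h, with points for the estimate from 3 pools against 3 and lines for the 95% interval. All 8 points lie below 0 at 2 h and 6 lie above 0 at 8 h, and no member passes the adjusted threshold in any panel. The 6 include Fosb, whose 8 h samples were all under the filter level. Its 8 h point is a fitted value of dim signal, so neither its size nor its direction is measured.

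Whether the effect of aldosterone differed between times was tested directly. By the limma F test over the 3 times, 0 members passed, against 0.155% of all genes, and 2 members had an unadjusted p under 0.05. Jun came closest, its effect at 8 h exceeding that at 2 h by 0.80 ± 0.18 (adjusted p = 0.0964 for that contrast, 0.177 by the F test), and its second probe set gave 0.29 ± 0.17 (adjusted p = 0.736). Jund followed, with 0.47 ± 0.15 (adjusted p = 0.309 for the contrast, 0.522 by the F test). For the contrast of 8 h with 2 h, 0.197% of all genes passed. The effect at 8 h minus that at 2 h was above 0 for all 8 members, from 0.32 for Atf3 to 0.80 for Jun, with a median of 0.45 against 0.09 over all genes. Above 0 does not mean a larger effect here, since the effects of Jun, Junb, Fosl1, Fosl2, Fosb and Atf3 were farther from 0 at 2 h than at 8 h. The effect on Jun went from -0.54 at 2 h to 0.26 at 8 h. For Fosb the effect at 8 h comes from values under 4 and is not a measured size. Without vehicle 2 h replicate 1 the median was 0.38 against -0.03 over all genes, with 0.28 for Fosl1, 0.18 for Fosl2 and 0.29 for Junb. The Jun difference was then 0.66 (adjusted p = 0.0648), and with array weights it was 0.68 and passed (adjusted p = 0.0222). These contrasts reuse the 2 h samples, and the 2 h values of both treatments are the starting point of the fall described next.

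Between 2 and 8 h, time in culture gave larger differences than aldosterone did for every member but Fosl2. On the probe sets that stand for the genes, no member differed between treatments at any time by more than 0.56. The second Fosl1 probe set reached -0.77 at 2 h, on values near the filter level. Fos differed between 8 and 2 h by -5.01 with aldosterone and -5.56 with vehicle. Fosl2 differed by -0.45 between treatments at 2 h, and between 8 and 2 h by -0.02 with aldosterone and -0.43 with vehicle. Between 2 and 4 h, 8 of 8 members passed with aldosterone, 6 lower and 2 higher, where 21.3% of all genes were lower and 17.3% higher. With vehicle 7 passed, 6 lower and 1 higher, where 25.6% of genes were lower and 14.6% higher. Fosb fell by 2.28 ± 0.22 with aldosterone (adjusted p = 6.2e-07) and fell by 2.77 ± 0.22 with vehicle (adjusted p = 6.3e-08). Fos fell by 2.00 ± 0.18 with aldosterone (adjusted p = 3.0e-07) and fell by 2.42 ± 0.18 with vehicle (adjusted p = 2.7e-08), and Atf3 fell by 2.05 ± 0.11 with aldosterone and fell by 2.38 ± 0.11 with vehicle. These 3 genes were among the 27 largest falls of 6679 genes with signal at both times with aldosterone, and among the 14 largest of 6779 with vehicle. Without vehicle 2 h replicate 1, the same comparison in vehicle gave 7 members, with -2.86 for Fosb, -2.56 for Fos and -2.37 for Atf3, while Fosl2 gave 0.32 (adjusted p = 0.354).

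The Jun family also fell over this interval. Jun fell by 1.52 ± 0.12 with aldosterone and fell by 2.17 ± 0.12 with vehicle. The difference between those falls, 0.65 ± 0.18, was not past the threshold (adjusted p = 0.577), and 0 of the 8 members passed for that contrast, against 0.0282% of all genes. Junb fell by 1.18 ± 0.18 with aldosterone and fell by 1.43 ± 0.18 with vehicle. Jund had the smallest fall of the family, by 0.72 ± 0.10 with aldosterone and by 0.76 ± 0.10 with vehicle. All 6 of these falls passed, with adjusted p-values of 0.000108 or less.

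Fosl1 rose while Fos, Fosb, Atf3 and the Jun family fell. Between 2 and 4 h it rose by 2.16 ± 0.20 with aldosterone (adjusted p = 5.9e-07) and by 1.58 ± 0.20 with vehicle (adjusted p = 1.5e-05). Its second probe set rose by 3.18 ± 0.26 with aldosterone and by 2.08 ± 0.26 with vehicle, so the sizes differ between probe sets and the direction does not. At 2 h the second probe set lay near the filter level, with means of 4.00 with aldosterone and 4.78 with vehicle. Its sizes for this rise are therefore imprecise. The difference between treatments in this rise was 0.58 ± 0.29 (adjusted p = 0.845) for the first and 1.09 ± 0.37 (adjusted p = 0.854) for the second. Fosl2 rose by 0.84 ± 0.26 with aldosterone (adjusted p = 0.0164) and gave 0.09 ± 0.26 with vehicle (adjusted p = 0.817). The difference between those values, 0.75 ± 0.36, was not past the threshold (adjusted p = 0.845). The Fosl2 call was lost in 2 of 28 alternatives. These were without aldosterone 2 h replicate 2 (0.62, adjusted p = 0.0979) and without aldosterone 4 h replicate 1 (0.62, adjusted p = 0.0926).

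Between 4 and 8 h, 7 members passed with aldosterone, all lower, where 16.6% of all genes were lower. With vehicle 6 passed, all lower, where 17% of genes were. Fosb showed the largest drop, at least 39.2-fold with aldosterone and at least 35.1-fold with vehicle, taking the filter level of 4 as the upper limit of the 8 h samples. Fos fell by 3.01 ± 0.18 with aldosterone (8.03-fold, adjusted p = 3.0e-09) and fell by 3.14 ± 0.18 with vehicle (8.79-fold, adjusted p = 2.4e-09). Atf3 fell by 1.66 ± 0.11 with aldosterone and fell by 1.65 ± 0.11 with vehicle. Jund fell by 0.90 ± 0.10 with aldosterone and fell by 1.35 ± 0.10 with vehicle. Junb fell by 0.82 ± 0.18 with aldosterone and fell by 1.01 ± 0.18 with vehicle.

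Jun changed little after 4 h. It fell by 0.38 ± 0.12 with aldosterone (adjusted p = 0.0243) and fell by 0.53 ± 0.12 with vehicle (adjusted p = 0.00309). Its second probe set did not pass, at -0.27 ± 0.12 with aldosterone (adjusted p = 0.0896) and -0.16 ± 0.12 with vehicle (adjusted p = 0.332). The aldosterone call was lost when aldosterone 4 h replicate 1 or 2, or any 1 of the aldosterone 8 h samples, was left out, with adjusted p between 0.0518 and 0.0951. Fosl2 fell by 0.86 ± 0.26 with aldosterone (adjusted p = 0.0144) and gave -0.52 ± 0.26 with vehicle (adjusted p = 0.128), which passed with array weights (-0.64, adjusted p = 0.0213). That Fosl2 fall was lost without aldosterone 4 h replicate 1 (adjusted p = 0.0879) or aldosterone 8 h replicate 1 (adjusted p = 0.0558). Fosl1 gave 0.28 ± 0.20 with aldosterone (adjusted p = 0.295) and 0.43 ± 0.20 with vehicle (adjusted p = 0.105). In vehicle the second Fosl1 probe set rose by 1.15 ± 0.26 (adjusted p = 0.00245), and the first passed without vehicle 4 h replicate 2 (0.59, adjusted p = 0.0493).

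**Figure D3:**
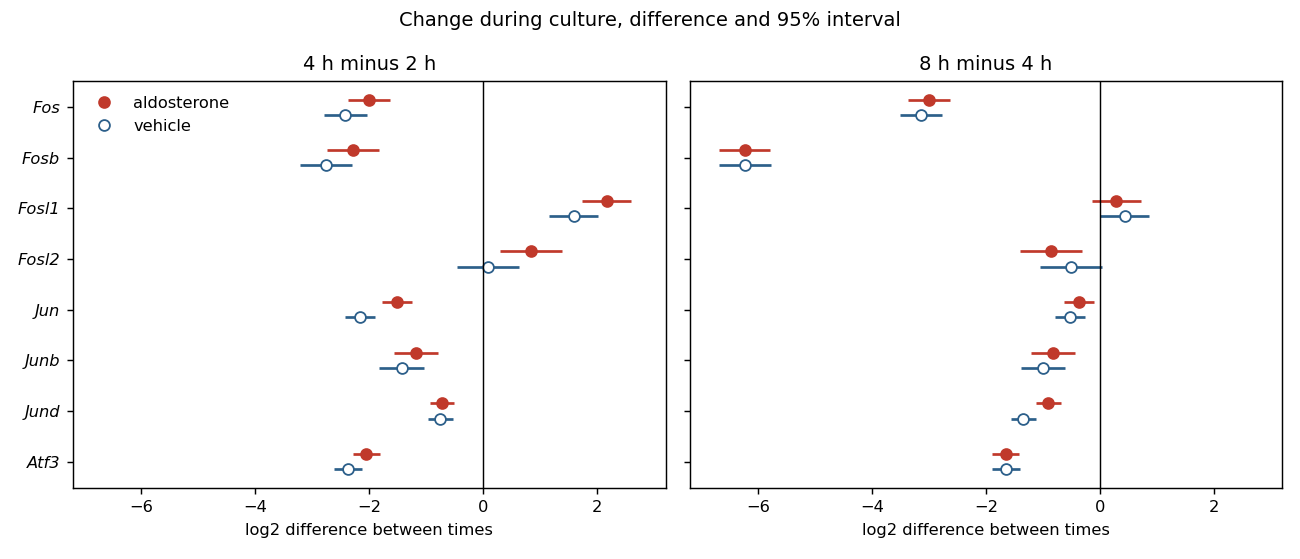
Log2 difference between successive times for the 8 members, with 4 h minus 2 h on the left and 8 h minus 4 h on the right, filled red points for aldosterone, open blue points for vehicle, and lines for the 95% interval. Fosb at 8 h lies under the filter level, so its point in the right panel is a fitted value of dim signal and not a measured size.

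Over the whole span, 8 h against 2 h, 6 members were lower and 1 higher with aldosterone, where 27.3% of genes were lower and 29.2% higher, and likewise 6 lower and 1 higher with vehicle, where 31.9% were lower and 26.6% higher. Fos fell by 5.01 ± 0.18 with aldosterone (32.2-fold) and fell by 5.56 ± 0.18 with vehicle (47.1-fold). Among genes with signal at both times it ranked as fall number 2 of 6580 with aldosterone and number 1 of 6675 with vehicle. Fosb, outside that ranking because its 8 h signal was under 4, fell at least 191-fold with aldosterone and at least 239-fold with vehicle. Atf3 fell by 3.71 ± 0.11 with aldosterone and fell by 4.03 ± 0.11 with vehicle. Jun fell by 1.90 ± 0.12 with aldosterone and fell by 2.70 ± 0.12 with vehicle, Junb fell by 2.01 ± 0.18 with aldosterone and fell by 2.44 ± 0.18 with vehicle, and Jund fell by 1.63 ± 0.10 with aldosterone and fell by 2.10 ± 0.10 with vehicle. Fosl1 rose by 2.45 ± 0.20 with aldosterone and by 2.02 ± 0.20 with vehicle. The comparisons across time share samples with each other: the 4 h samples enter both steps and the 2 h samples enter the first step and the whole span. Member medians were -1.95 with aldosterone, against 0.02 over all genes, and -2.57 with vehicle, against -0.07 over all genes. Without vehicle 2 h replicate 1 the vehicle median was -2.43, against 0.02 over all genes, the same numbers of members passed in each direction, Fos gave -5.69 and Fosl2 -0.20.

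Since the steps last 2 and 4 h, the change per hour was also compared between them over both treatments, a comparison chosen after the values had been seen. By limma, 7 members passed, where 40% of all genes did: 4 were lower in the first step, as were 24.2% of genes, and 3 higher, as were 15.8%. Jun fell by 0.76 per hour between 2 and 4 h and fell by 0.09 per hour between 4 and 8 h with aldosterone, and fell by 1.09 and then 0.13 per hour with vehicle. The Jun difference between the steps was -0.81 ± 0.06 per hour (adjusted p = 3.0e-08). Atf3 slowed as well, its fall of 1.03 per hour in the first step with aldosterone and 1.19 with vehicle being followed by 0.41 per hour in both cultures (difference -0.69 ± 0.05, adjusted p = 6.2e-08). Junb (-0.43 ± 0.09) and Fos (-0.34 ± 0.08) had smaller differences. Jund fell at 0.36 and then 0.23 per hour with aldosterone and 0.38 and then 0.34 per hour with vehicle, a difference of -0.09 ± 0.05 that did not pass (adjusted p = 0.152). Fosl1 rose by 1.08 per hour with aldosterone and 0.79 with vehicle in the first step, followed by 0.07 with aldosterone and 0.11 with vehicle. For Fosl2 the difference, 0.40 ± 0.12, passed (adjusted p = 0.0132), and it did not without aldosterone 4 h replicate 1 (adjusted p = 0.0511). Fosb cannot be placed, because its 8 h samples only bound the level: its fitted difference was 0.30 ± 0.10 (adjusted p = 0.0265), 0.04 with values under 4 set to 4, and not past the threshold in 6 of the alternatives.

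Markers of cell types moved with culture time too. For the counts below, 27.3% of all genes were lower and 29.2% higher at 8 h than at 2 h with aldosterone. With vehicle 31.9% were lower and 26.6% higher. Smooth muscle markers averaged 11.16 to 11.52 at 8 h with aldosterone, against 12.30 to 12.35 at 2 h, and 11.24 to 11.61 at 8 h with vehicle, against 12.03 to 12.19 at 2 h. With aldosterone 5 of 6 were lower at 8 h, and with vehicle 4 were lower and 1 higher. Endothelial markers, all 6 averaged, had 5.76 to 6.36 at 8 h with aldosterone, against 6.66 to 7.15 at 2 h. With vehicle this average was 5.97 to 6.07 at 8 h, against 6.71 to 7.72 at 2 h. It includes Tie1, which was under the filter (mean 2.89), so 5 of the 6 were measured. In each culture 4 endothelial markers were lower, and with aldosterone 1 was higher, the cadherin gene Cdh5, with a mean of 6.93 at 8 h, against 6.11 at 2 h. Fibroblast markers, 5 of 5 measured, averaged 9.89 to 10.14 at 8 h with aldosterone, against 10.94 to 11.19 at 2 h, and 9.72 to 10.04 at 8 h with vehicle, against 10.98 to 11.53 at 2 h, all 5 lower in each culture. Macrophage markers, 5 of 5 measured, averaged 6.04 to 6.30 at 8 h with aldosterone, against 6.96 to 7.18 at 2 h, and 6.01 to 6.43 at 8 h with vehicle, against 6.84 to 7.83 at 2 h. In each culture 3 macrophage markers were lower and 1 higher: with aldosterone Csf1r fell by 2.95 ± 0.26 and Lyz2 fell by 2.39 ± 0.29, while Cd14 rose by 0.86 ± 0.22. Adipocyte markers, 4 of 5 measured, averaged 9.41 to 9.70 at 8 h with aldosterone, against 10.60 to 10.90 at 2 h, and 8.75 to 9.13 at 8 h with vehicle, against 10.07 to 11.20 at 2 h. For RNA quality, the gap in log2 signal between the 3′ and the 5′ probe sets of the array's control transcripts was 1.13 to 1.38 at 2 h, 1.15 to 1.41 at 4 h and 0.93 to 1.28 at 8 h. Of 3 red blood cell markers 1 was measured. No marker gene of these lists passed between treatments at any time. The part of cell makeup and RNA quality in the changes of the AP-1 members was not tested.

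Genes that surround AP-1 in its pathway were counted over the same span. Of 27 listed genes upstream of AP-1 (serum response factor, its cofactors, MEF2 factors and MAP kinases), 19 were measured, and 7 were lower and 5 higher at 8 h than at 2 h with aldosterone, against 6 lower and 3 higher with vehicle. Over all genes 27.3% were lower and 29.2% higher with aldosterone, and 31.9% lower and 26.6% higher with vehicle, so most of these counts stand near those shares. Mef2c, a MEF2 factor of muscle, fell by 2.65 ± 0.16 with aldosterone and fell by 3.10 ± 0.16 with vehicle. Mef2d, its relative that acts at the Jun promoter, fell by 1.68 ± 0.14 with aldosterone and fell by 1.87 ± 0.14 with vehicle. Srf, serum response factor itself, fell by 1.75 ± 0.18 with aldosterone (adjusted p = 2.5e-07), and its mean with vehicle went from 8.23 to 6.82. Map3k8, a MAP kinase kinase kinase, fell by 3.06 ± 0.22 with vehicle, and its mean with aldosterone went from 7.20 to 5.81. At 8 h, where the vehicle samples lay near the filter level, it was 1.13 ± 0.22 higher with aldosterone (adjusted p = 0.0124). That call was lost on leaving out replicate 1 or 2 of the aldosterone samples or replicate 1 or 3 of the vehicle samples at 8 h. It was also lost with only the groups compared in the fit (adjusted p = 0.154). The list's median was -0.04 with aldosterone, against 0.02 over all genes, and -0.13 with vehicle, against -0.07 over all genes. The count of higher genes in this list was less firm. With aldosterone it was 3 on leaving out any 1 of the aldosterone 2 h samples or aldosterone 8 h replicate 1, and 2 without aldosterone 8 h replicate 2, and over all alternatives it ran from 2 to 6. With vehicle it also ran from 2 to 6: it was 5 without vehicle 2 h replicate 1, with quantile normalization and with array weights, 6 with median centring, and 2 without replicate 2 of the vehicle samples at 2 h or at 8 h.

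Other leucine zipper factors that pair with or resemble Fos and Jun did not follow the members as a group. Of 22 listed, 15 were measured, and at 8 h against 2 h 6 were higher and 2 lower with aldosterone, and 5 higher and 4 lower with vehicle. Over all genes 29.2% were higher and 27.3% lower with aldosterone, and 26.6% higher and 31.9% lower with vehicle. The counts with vehicle thus stand near those shares. The median of the list was 0.26 with aldosterone, against 0.02 over all genes, and 0.07 with vehicle, against -0.07 over all genes. Ddit3, the stress factor CHOP, rose by 2.30 ± 0.18 with aldosterone and by 2.30 ± 0.18 with vehicle. Mafg, a small Maf protein, rose by 1.20 ± 0.17 with aldosterone, and Atf5 rose by 1.21 ± 0.18 with aldosterone. With vehicle their means went the same way between 2 and 8 h, from 7.77 to 8.64 for Mafg and from 8.31 to 9.54 for Atf5. Bach1, a repressor of the heme oxygenase gene, fell by 0.96 ± 0.12 with vehicle (adjusted p = 2.7e-06), and Atf6, a sensor of unfolded proteins, rose by 1.22 ± 0.15 with vehicle. With aldosterone their means moved in the same directions, from 9.65 to 8.98 for Bach1 and from 7.89 to 8.78 for Atf6. Within this list 1 gene differed by treatment at 8 h. Cebpd, a C/EBP factor known to respond to corticosteroids, had 9.42 to 9.57 with aldosterone and 8.62 to 8.91 with vehicle, and was 0.74 ± 0.14 higher with aldosterone (adjusted p = 0.00785). That call was lost without vehicle 8 h replicate 3 (0.67, adjusted p = 0.0508) or aldosterone 8 h replicate 2 (0.72, adjusted p = 0.0568).

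Textbook targets of AP-1 mostly rose in culture while most of the members fell. Of 28 listed, 21 were measured, and 15 were higher and 4 lower at 8 h than at 2 h with aldosterone, with the same counts with vehicle. Over all genes 29.2% were higher and 27.3% lower with aldosterone, and 26.6% higher and 31.9% lower with vehicle. The median of the targets was 1.91 with aldosterone, against 0.02 over all genes, and 1.76 with vehicle, against -0.07 over all genes. Il11, a cytokine of the interleukin-6 family, rose 22.5-fold with aldosterone (4.49 ± 0.18, adjusted p = 2.8e-12) and 14.4-fold with vehicle (3.85 ± 0.18, adjusted p = 2.0e-11). Odc1, the rate-limiting enzyme of polyamine synthesis, rose 4.18-fold with aldosterone and 3.40-fold with vehicle. Dusp1, a phosphatase that switches off MAP kinases and is itself an immediate early gene, fell by 1.92 ± 0.10 with aldosterone and fell by 1.88 ± 0.10 with vehicle. Between treatments, 0 targets passed at 2, 4 or 8 h by limma. Il11 at 2 h gave -0.90 ± 0.18 (adjusted p = 0.0742) and passed in 5 alternatives (adjusted p from 0.0246 to 0.0493). They included array weights and setting values under 4 to 4. The others left out vehicle 2 h replicate 3, aldosterone 4 h replicate 1 or vehicle 8 h replicate 3. Averaged over times 1 target passed: Il11 was 0.56 ± 0.10 lower with aldosterone (adjusted p = 0.00833). At 2 h Il11 had 5.45 to 5.63 with aldosterone and 6.25 to 6.56 with vehicle, and at 8 h 9.88 to 10.11 with aldosterone and 9.96 to 10.45 with vehicle.

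**Figure D4:**
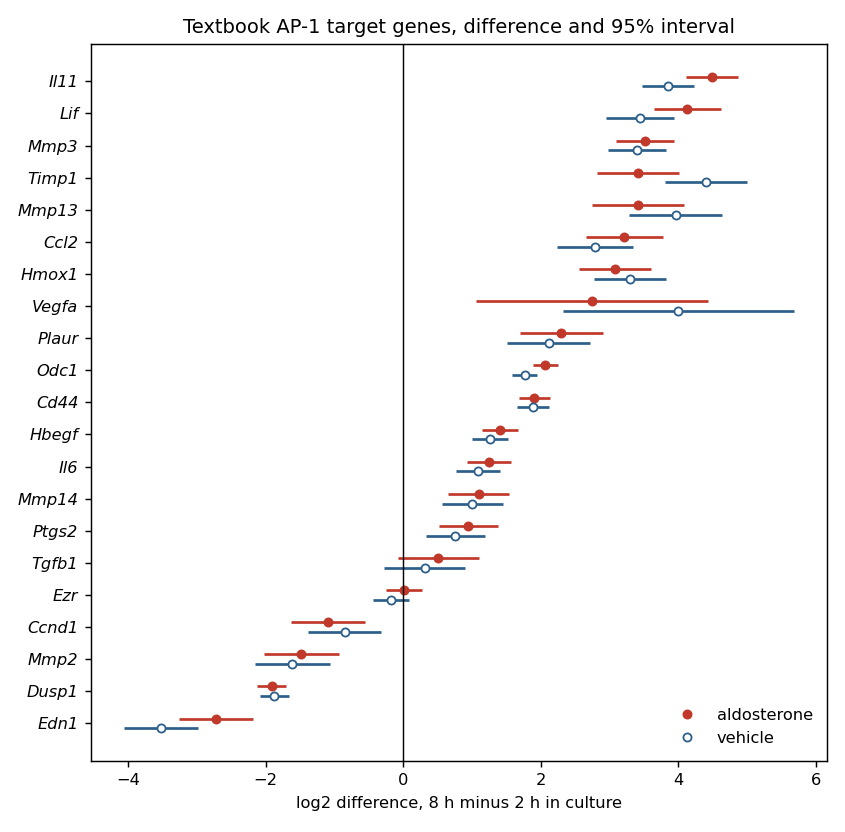
Log2 difference, 8 h minus 2 h in culture, for the 21 measured textbook targets of AP-1, with filled red points for aldosterone, open blue points for vehicle, and lines for the 95% interval. Among them 15 rose and 4 fell past the threshold in each culture, with the same direction in both for all of these.

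Across the 18 samples, the genes whose profile was most like each member are given by Pearson's r as a description, since the samples share the course in culture that dominates every profile. Nearest to Fos were Nr4a1 (0.996), an orphan nuclear receptor and immediate early gene, Fosb (0.987) and Gadd45b (0.987), a growth arrest gene. Atf3 was nearest to Ccn1 (0.994), a matricellular protein, Nr4a2 (0.990) and Irf1 (0.988). Fosb was nearest to Gadd45b (0.992), Abca8a (0.992) and Sptbn1 (0.991). Jun was nearest to Clk1 (0.988), a splicing kinase, Klf2 (0.981) and Polg2 (0.981). Junb was nearest to Lyz1 (0.987), Zfp36 (0.985), which destabilises messenger RNAs, and Slc35f5 (0.983). Jund was nearest to Ablim1 (0.987), Klhl13 (0.985) and Fos (0.985). Fosl1 was nearest to Hbegf (0.984), an epidermal growth factor ligand that is also in the target list, Nop2 (0.983) and Wdr77 (0.979). Fosl2 had no gene above 0.854, which was Wasl, followed by Ist1 (0.849) and Ahctf1 (0.822). Between members, Fos and Fosl1 gave -0.85, and Fos and Jund 0.98. Without vehicle 2 h replicate 1 the first-named genes had r between 0.845 and 0.996, and for 4 members another gene then came first: Hbegf was number 4 for Fosl1, Gadd45b number 3 for Fosb, Lyz1 number 2 for Junb and Wasl number 2 for Fosl2, behind Ist1 (0.866).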

How the data were processed

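Log2 expression values of 22690 probe sets in 18 samples were deposited by the authors; they were made with GCRMA (version not given), per the submitters' processing notes. The genome build was not given in the sources used here. Replicates are separate pools of 3 aortas, per the labels. Probe sets annotated to 1 gene (20380, of which 20351 matched RefSeq by gene ID) were kept if above log2 4 in at least 3 samples, and the probe set with the highest mean represented each of 7092 genes. A model with 6 group means was fitted with limma 3.58.1 in R 4.3.3 (intensity trend), with Benjamini-Hochberg adjustment over all 7092 genes, a threshold of 0.05 and 95% intervals. The code was tested on simulated data. Only 3 arrays a group limit the precision. Members and gene lists were chosen with earlier results of these data known. All 8 members are named; from each list up to 3 genes past the threshold with the smallest p are named, or up to 2 where none passed, unless a result rested on another gene. For likeness, the 3 genes with the highest Pearson's r are named. The comparison of changes per hour and setting values under 4 to 4 were chosen after seeing the data. Alternatives covered the filter, trend, normalization, probe set choice, array weights, replicate block, the samples in the fit and each sample left out.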

Additional observations from a re-analysis of the deposited data

Results flagged for a closer look

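Map3k8, a MAP kinase kinase kinase upstream of AP-1, had an aldosterone effect at 8 h that exceeded its effect at 2 h by 1.67 on the log2 scale (adjusted p = 0.0331 by limma over all genes). That contrast passed the threshold, while the F test over the 3 times did not (adjusted p = 0.111) and passed without vehicle 8 h replicate 2 (adjusted p = 0.0162). At 8 h it had 5.56 to 5.99 with aldosterone and 4.18 to 5.23 with vehicle, and at 2 h 7.04 to 7.43 with aldosterone and 7.51 to 7.94 with vehicle. All aldosterone samples were higher at 8 h and lower at 2 h. The vehicle samples at 8 h lay near the filter level of 4 (mean 4.68, SD 0.53), so the size of the effect is imprecise. The difference was not past the threshold under 13 of the alternatives, with adjusted p between 0.0514 and 0.159, among them the fit without a filter and those leaving out either of the first 2 aldosterone samples at 2 h or at 8 h. At 8 h alone the effect was 1.13 ± 0.22 (adjusted p = 0.0124), and it did not pass without vehicle 8 h replicate 3 (0.88, adjusted p = 0.0762). It also did not pass without vehicle 8 h replicate 1, without aldosterone 8 h replicate 1 or 2, or with only the groups compared in the fit (adjusted p = 0.154). Groups of 3 were not tested for single outlying samples.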

How the results depend on the processing

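Across 29 alternatives, 18 of which leave out 1 sample, 2302 values were recomputed for the 80 member results between treatments and between culture times: 2289 kept their side of the threshold, 9 lost a call and 4 gained one. No called value changed sign, and 42 values that passed in neither fit did. Outside these 80, for the change per hour Fosb lost its call in 6 alternatives and Fosl2 in 1, and for the effect at 8 h minus that at 2 h Jun gained one. With array weights the count of members between treatments at 8 h was 1 (Jund), and 222 genes passed in all, against 71. The causes were not tested. Leaving out 1 sample gave 7 to 8 members for aldosterone between 2 and 4 h, 5 to 7 between 4 and 8 h, and 6 to 7 for vehicle between 4 and 8 h. Genes passing at 2 h numbered 5, against 54 with array weights, 29 without vehicle 2 h replicate 1, 17 with no filter and 0 with only the groups compared. At 4 h 17 passed, against 42 with array weights, 32 without vehicle 2 h replicate 1 and 8 with only the groups compared. At 8 h without that sample 111 passed. Averaged over times 78 passed, against 260 with array weights and 146 without that sample. For vehicle between 2 and 4 h 2852 passed, against 1331 with only the groups compared. Over all genes tested, the deviations of same-numbered samples had correlations from -0.186 to 0.282 over 9 pairs. Among the members at 4 h, replicate 3 was lowest in both treatments for Fos, Fosb, Fosl1, Fosl2 and Jun. For Junb, Jund and Atf3 it was not. Pairing of samples within a time was not tested for the members. With replicate number as a block the member counts were 0 between treatments at each time and averaged, 7, 6 and 7 for vehicle and 8, 7 and 7 for aldosterone (4 h against 2 h, 8 h against 4 h, 8 h against 2 h), and no member count changed. Only the groups compared could not be run for the average, the test across times and the change per hour. Low signal limits Fosb at 8 h, Fosl2 throughout, the second Fosl1 probe set at 2 h and Map3k8 with vehicle at 8 h.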
